A study of Mus musculus with 40 samples.

Results

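The nuclear-encoded subunits of the respiratory chain were followed by RNA sequencing of the left somatomotor cortex in female mice after 1 to 5 closed-head injuries (CHI). Members were mouse features whose symbol begins with Nduf (families a, b, c, s and v), Uqcr, Atp5 or one of the numbered Cox families 4 to 8 with a letter, together with Sdha to Sdhd and Cyc1, without symbols that contain -ps, a mark of pseudogenes, and with at least 10 counts in at least 35 of 39 samples. Of 96 features with such a symbol, 81 met the rule, out of 15224 features tested and 55539 in the count table. They comprised 36 features of complex I, 4 of complex II, 9 of complex III, 15 of complex IV and 17 of complex V. Ndufb4c, counted with complex I, is annotated as a processed pseudogene, and 97.4% of its estimated counts were not whole, as happens where reads are divided between features. Another 7 features without -ps fell under the count minimum (Ndufa11b, Ndufs6b, Cox6c2, Cox7b2, Cox8b, Cox8c and a second Atp5o row), and 8 were set aside by name (Ndufb1-ps, Uqcrh-ps1, Uqcrh-ps2, Atp5c1-ps, Atp5k-ps2, Atp5l-ps1, Atp5l-ps2 and Atp5l2-ps), of which Ndufb1-ps passed the minimum. Just inside the count rule were Cox6b2 and Cox7a1, with 38 of 39 samples at the minimum. The closest of those under the minimum, Cox6c2, lay far outside it with 3 of 39.

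All mice were 3xTg-AD females on a C57BL/6J background, 2 to 4 months old, a line that carries human amyloid precursor and tau transgenes under a neuronal Thy1 promoter and an altered presenilin gene. The sham-injured controls carry these alleles too and, per the study's methods, were anesthetized without impact, with animals of different exposure numbers treated as 1 group (Sham, n = 4). Injured mice received 1 weight drop on the intact skull per day under isoflurane and were taken 30 min, 4 h or 24 h after the last one, giving 1xCHI (n = 3, 3 and 4), 3xCHI (n = 3, 2 and 4) and 5xCHI (n = 3, 3 and 4). Groups of 3 mice taken 24 h after 2xCHI and 24 h after 4xCHI stood for the state before the third and the fifth injury. A 3xCHI 4 h sample, number 30, was left out, as the study did. Library totals ran from 15926014 to 27859547 estimated counts, with a median of 19028778.

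Oxidative phosphorylation passes electrons from NADH through complex I, or from succinate through complex II, to ubiquinone, then through complex III and cytochrome c to complex IV, which reduces oxygen. Complexes I, III and IV pump protons across the inner mitochondrial membrane, and complex V, the ATP synthase, uses the returning protons to make ATP. Most subunits are encoded in the nucleus and a few in mitochondrial DNA, and cortical neurons draw heavily on the pathway for ion pumping and synaptic transmission. Many of the nuclear genes carry binding words of the transcription factor NRF1 in their promoters.

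Stretches around an NRF1 word are shown for 5 subunits named below, because they mark the kind of promoter that many of these genes share. Each runs 5′ to 3′ on the minus strand in the direction of the gene, with the word in capitals, from RefSeq promoters on GRCm38.p6. The regions are chr5:108434415-108434474 for Atp5k, chr5:115349086-115349145 for Cox6a1, chr15:102671055-102671114 for Atp5g2, chr6:24527682-24527741 for Ndufa5 and chr13:74350304-74350363 for Sdha.
Atp5k: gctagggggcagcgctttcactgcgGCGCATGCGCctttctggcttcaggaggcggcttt
Cox6a1: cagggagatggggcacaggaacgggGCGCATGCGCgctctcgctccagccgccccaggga
Atp5g2: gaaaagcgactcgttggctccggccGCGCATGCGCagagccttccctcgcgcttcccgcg
Ndufa5: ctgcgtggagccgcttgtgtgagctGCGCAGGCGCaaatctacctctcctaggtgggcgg
Sdha: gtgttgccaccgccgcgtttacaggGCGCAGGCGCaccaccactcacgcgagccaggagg

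A promoter, taken as 250 bases before to 50 bases after the gene start, was given for 66 of the 81 members, 64 by symbol and 2 by synonym. The full NRF1 palindrome, the letters GCGCA followed directly by their reverse complement TGCGC, was in a promoter of 5 of these 66 members (7.58%), against 0.971% of all 32851 promoters. With any base in place of the last letter of the first part (GCGC, any base, then TGCGC, on either strand, which includes the first word), it was in 17 (25.8%) against 4.60%. The words searched for YY1 (AAGATGGCG), SP1 (GGGGCGGGG), GABPA (CCGGAAGTG) and the estrogen-related receptors (TCAAGGTCA), on both strands, were in 7, 12, 2 and 2 of the 66 (10.6%, 18.2%, 3.03% and 3.03%), against 1.40%, 11.4%, 2.03% and 0.423% of all promoters. The median log2 fold change after 1xCHI, described below, was 0.33 in the 5 members with the palindrome and 0.33 in the others, and 0.29 in the 17 with the wider word and 0.33 in the others. A word is a match of letters and not a shown binding site. A member was counted where any of its promoters held the word, and a member can have several promoters. The shares of members and of all promoters are thus not of the same unit, which favors the members.

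The 81 subunits took 0.725% to 1.06% of all counts in a library, with a median of 0.827%. Levels are given as CPM, counts scaled to library size with TMM factors. By summed CPM complex V held 36.0% of the members' total, complex I 28.6%, complex IV 17.5%, complex III 11.3% and complex II 6.69%. Per kilobase of transcript, which allows genes to be set side by side, the median level was 159 CPM per kilobase for complex IV subunits, 137 for complex V, 96.3 for complex III, 73.2 for complex I and 68.2 for complex II. The highest level of all was that of Atp5b, the catalytic beta subunit of the ATP synthase, with 483 CPM per kilobase. Cox8a, a small membrane subunit of complex IV, followed with 413.

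Among paralog pairs of complex IV, the widely expressed form exceeded the heart and muscle or testis form. Mean CPM per kilobase was 271 for Cox6a1 and 4.05 for Cox6a2, 196 for Cox6b1 and 2.48 for Cox6b2, and 116 for Cox7a2 against 2.56 for Cox7a1, with 79.4 for the related Cox7a2l. Ndufa4, a subunit now placed in complex IV, had 280.2 CPM per kilobase and its paralog Ndufa4l2 had 1.66. The proton-carrying c ring of the ATP synthase is encoded by 3 genes with the same mature protein, of which Atp5g3 had 248 CPM per kilobase, Atp5g2 25.1 and Atp5g1 15.0, the last with a doubtful length of 4715 bases. Over 5% of values were not whole for 17 members, Cox6c, Cox5b, Cox7c, Uqcrb, Ndufb2, Atp5f1, Atp5g1 and Atp5l among them. Such values arise where reads are divided between features, and the levels of these members are uncertain to that extent.

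To determine whether a first injury changed the subunits, 1xCHI at all times was compared with Sham by edgeR's quasi-likelihood test across all features. None of the 81 members passed the threshold (Benjamini-Hochberg adjusted p under 0.05 over 15224 features), as was true of all features (0.0% called), and none passed with DESeq2. The smallest adjusted p among the members was 0.221. The members nevertheless lay to one side: 76 of 81 had a higher fitted level in 1xCHI, with a median log2 fold change of 0.33 against 0.01 for all features tested. At an unadjusted p under 0.05, 55 members were higher and 1 was lower, where 10.9% of all features were higher and 6.33% lower. The samples come from separate mice as far as the labels tell, and the p-values measure the spread between these samples. In bulk tissue, fewer cells of a type and less RNA per cell cannot be told apart.

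**Figure D1:**
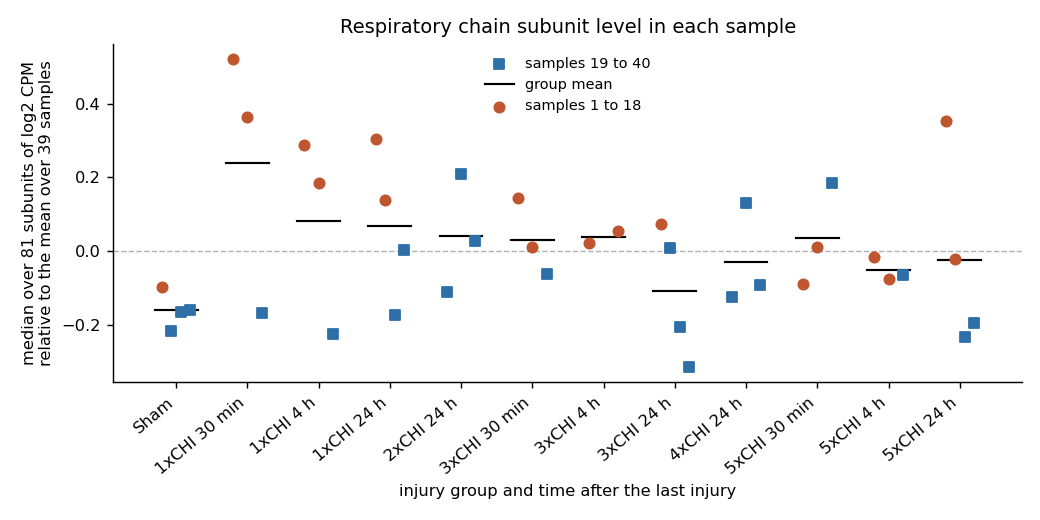
Median over the 81 subunits of log2 CPM relative to each gene's mean over 39 samples (y axis) for each sample, by injury group and time after the last injury (x axis), with colors for samples 1 to 18 and 19 to 40. The 4 Sham samples lie between -0.22 and -0.10, the 6 1xCHI samples numbered 1 to 18 between 0.14 and 0.52, and the 4 numbered 19 to 40 between -0.22 and 0.00.

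The position of the 1xCHI samples depended on the sample number in their titles. Samples 1 to 18 and samples 19 to 40 were set apart because earlier results of these data showed a step there, and the labels do not name these ranges as a batch. The first range holds 6 of the 10 1xCHI samples and 1 of the 4 Sham samples, and 2xCHI and 4xCHI fall wholly in the second. As a level, the median over members of log2 CPM relative to each gene's mean, Sham samples ran from -0.22 to -0.10. The 6 1xCHI samples numbered 1 to 18 ran from 0.14 to 0.52, all above Sham, and the 4 numbered 19 to 40 from -0.22 to 0.00, which overlaps Sham. Within samples 19 to 40 alone (1xCHI n = 4, Sham n = 3) the median log2 fold change of the members was 0.05. There 0 members were higher and 1, Cox6b2, was lower at an unadjusted edgeR p under 0.05, where 1.95% of all features were higher and 2.49% lower, and 0 had an adjusted p under 0.05. Samples 1 to 18 hold 1 Sham library, sample 6, so no comparison with Sham was fitted within them. Its level was -0.10, below the 6 1xCHI samples of that range. With a covariate for the range the median of 1xCHI against Sham was 0.21, with 39 members higher and 1 lower at an unadjusted p under 0.05 (5.73% and 3.47% of all features) and none with an adjusted p under 0.05 by edgeR.

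The difference also moved with transcript length. The members are short: the median principal transcript was 809 bases, against 2898 for all features tested, and 78 of 81 were shorter than that median. The other features tested with a transcript under 500 bases had a median log2 fold change of 0.48 in the same comparison, and the 10 members in that class had 0.47. From 500 to 749 bases the medians were 0.32 for other features and 0.37 for 28 members, and at 2500 bases or more they were -0.06 and 0.00 for 4 members. By the first length used, the median over a gene's coding transcripts, the medians under 500 bases were 0.29 for other features and 0.47 for 14 members, and from 500 to 749 bases 0.14 and 0.35 for 35 members. That first length gave implausible values for several members, such as 651 bases for Ndufs1 where the principal transcript has 2661, so the second was added after its result had been seen. With a length and GC trend removed from each sample, the members' median was 0.15 by the first length, with 44 higher at an unadjusted p under 0.05 (8.62% of all features). By the second it was 0.03, with 15 higher and 4 lower (6.61% and 5.01% of all features). How much of the members' difference went with length depended on how length was defined, and its source was not tested.

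**Figure D2:**
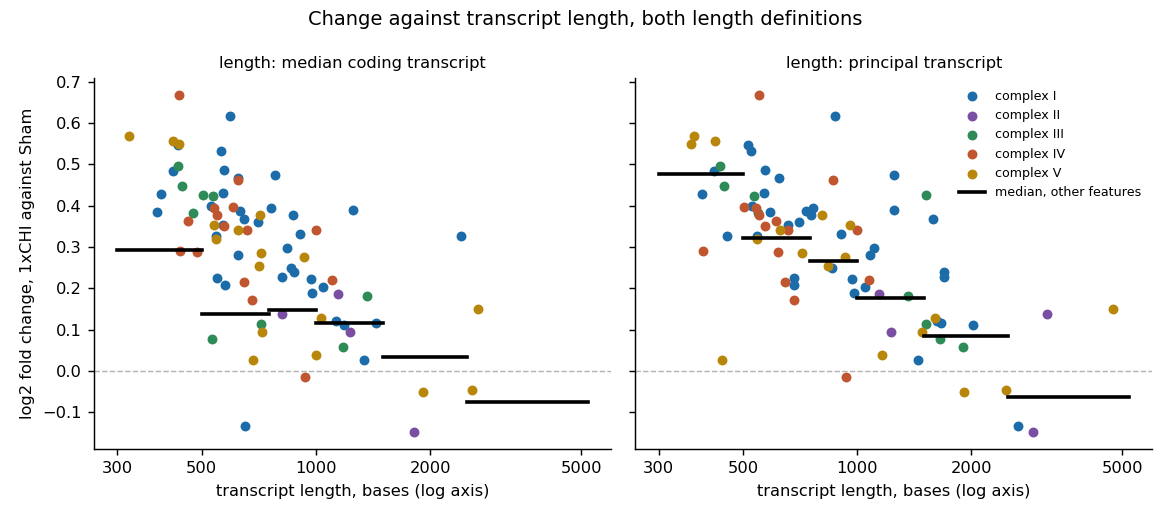
Log2 fold change of 1xCHI against Sham (y axis) against transcript length in bases (x axis, log scale) for the 81 subunits as points, with the median of the other features by length class, for both definitions of length. By the principal transcript the median of other features falls from 0.48 under 500 bases to -0.06 at 2500 bases or more, close to the subunits, and by the median coding transcript it falls from 0.29 to -0.08, below most short subunits.

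In complex I, which oxidizes NADH, 28 of 36 features were higher after 1xCHI at an unadjusted p under 0.05 and none lower, with a median log2 fold change of 0.34. Accessory subunits surround and stabilize the enzyme, and 29 features were grouped with them, the pseudogene copy Ndufb4c included. These had a median of 0.37 and 25 of them were higher. The 7 core subunits, which carry the flavin and the iron-sulfur clusters, had 0.19 and 3 were higher. Within samples 19 to 40 the medians were 0.056 and 0.051, with none higher in either, and with the trend removed by the principal transcript 0.061 and -0.0051. Ndufa5, an accessory subunit of the ubiquinone-reducing module, had 30.4, 21.9, 24.4 and 26.4 CPM in the Sham samples and 24.3, 41.3 and 58.8 CPM as the lowest, median and highest of 10 1xCHI samples. The 6 1xCHI samples numbered 1 to 18 were all above the 4 Sham samples, and those numbered 19 to 40 overlapped them. The share of all features that separate in this way within samples 1 to 18 was not counted. For Ndufa5 the log2 fold change was 0.62 ± 0.17 (SE), with an unadjusted p of 0.000674 and an adjusted p of 0.221 by edgeR, and 0.24 ± 0.15 within samples 19 to 40.

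Ndufa3, an accessory subunit of the membrane arm, had a log2 fold change of 0.55 with an unadjusted edgeR p of 0.00101. The pseudogene copy Ndufb4c had 0.43 with an unadjusted p of 0.00061, and the protein-coding Ndufb4 0.22 with 0.0779. Both are uncertain, since 97.4% of the values were not whole for Ndufb4 as well. The single Sham sample 20 was low for Ndufa3, with 20.7 CPM against 37.9 to 39.6 in the other 3, and without it the log2 fold change was 0.35. Ndufv2, a core subunit that holds an iron-sulfur cluster near the flavin site, ran from 95.0 to 100 CPM in Sham and from 102 to 130 CPM in 1xCHI, so that the groups did not overlap. It was the 1 member for which every 1xCHI sample lay above every Sham sample, as was the case for 0.217% of all features. Its log2 fold change was 0.23 ± 0.07 (SE) and its adjusted p 0.221. Ndufs1, the largest subunit of the NADH-oxidizing module, was the lowest of complex I: its 4 Sham samples had 130, 127, 138 and 141 CPM, the 1xCHI samples 103 to 151 with a median of 116, and the log2 fold change was -0.13 ± 0.08. Ndufs1 was under every Sham value in the 6 1xCHI samples numbered 1 to 18 and was 125 to 151 CPM in the 4 others. How large a share of all features lies under Sham in this way was not counted.

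Complex II, which also belongs to the citrate cycle, had the smallest median, 0.12, with 1 of 4 subunits higher and 1 lower at an unadjusted p under 0.05. Sdha, the flavoprotein that oxidizes succinate, had 342, 326, 330 and 324 CPM in Sham and 251, 300 and 333 CPM as the lowest, median and highest in 1xCHI. Its log2 fold change was -0.15 ± 0.06 (SE), with an unadjusted p of 0.0209 and an adjusted p of 0.25, and within samples 19 to 40 it was -0.01 ± 0.07. Sdhb, the iron-sulfur subunit of the same enzyme, had a log2 fold change of 0.19 and an unadjusted p of 0.0358. Sdha has a long transcript of 2900 bases.

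In complex III, the ubiquinol to cytochrome c reductase, 6 of 9 subunits were higher at an unadjusted p under 0.05, with a median of 0.38. Within samples 19 to 40 the median was 0.062 and none was higher. Uqcrb, a small subunit beside the ubiquinone site, had 48.3, 38.7, 45.7 and 43.0 CPM in Sham and 47.5, 59.9 and 76.4 CPM as the lowest, median and highest in 1xCHI. In 8 of the 10 1xCHI samples it was above the highest Sham sample, and the log2 fold change was 0.42 ± 0.11 (SE) with an adjusted p of 0.221. Uqcr10 and Uqcr11, likewise small, had 0.49 and 0.45. The large core proteins Uqcrc1 and Uqcrc2 had 0.08 and 0.06 and the heme-bearing Cyc1 had 0.11, none with an unadjusted p under 0.05.

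In complex IV, cytochrome c oxidase, 9 of 15 subunits were higher at an unadjusted p under 0.05, with a median of 0.34. Within samples 19 to 40 the median was 0.060, with none higher and Cox6b2 lower. Cox7b had 96.9, 87.2, 94.0 and 92.6 CPM in Sham and 92.0, 116 and 152 CPM as the lowest, median and highest in 1xCHI, a log2 fold change of 0.34 ± 0.10 (SE) with an adjusted p of 0.221. All but 2 of the 1xCHI samples were above every Sham sample, and the lowest, sample 26, was under 3 of them. The zinc-binding Cox5b had a log2 fold change of 0.46, Cox6c 0.40, Cox7c 0.39, Cox8a 0.38 and Ndufa4 0.36. The low-level paralogs Cox6a2, Cox6b2, Cox7a1 and Ndufa4l2 had unadjusted p-values of 0.137 to 0.958. Cox6b2, the testis form of the subunit, had a log2 fold change of 0.67 ± 0.44 (SE) over all samples and -0.75 ± 0.34 within samples 19 to 40, with unadjusted edgeR p-values of 0.137 and 0.042 and adjusted p-values of 0.387 and 0.9995. It ran from 0.86 to 1.2 CPM in Sham, from 2.08 to 3.11 in 1xCHI samples 1 to 18 and from 0.355 to 1.06 in 1xCHI samples 19 to 40.

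Within complex V, the 9 members outside the F1 head and the c ring, Atp5s among them, were grouped as stalks and membrane part. They had a median log2 fold change of 0.34 and 8 of them were higher at an unadjusted p under 0.05. The 5 members grouped as the F1 head, Atp5a1, Atp5b, Atp5c1, Atp5d and Atp5e, had a median of 0.04 and the 3 c-ring genes 0.15. Within samples 19 to 40 the medians were 0.048, 0.029 and -0.030 in the same order, with none higher, and with the trend removed by the principal transcript 0.031, -0.062 and -0.0018. Atp5k, which encodes the small membrane subunit e, had 59.4, 27.5, 49.97 and 58.2 CPM in Sham and 49.7, 73.4 and 113 CPM as the lowest, median and highest in 1xCHI. Sham sample 20 was far below the others, the groups overlapped, and the log2 fold change was 0.57 ± 0.18 (SE) with an unadjusted edgeR p of 0.00305. Without Sham sample 20 it was 0.36. Atp5mpl, another small membrane protein, had 0.55. In the F1 head the small Atp5e had 0.56, while the large alpha and beta subunits had -0.04 for Atp5a1 and -0.05 for Atp5b. Atp5b was 936 ± 16.8 CPM (SD, n = 4) in Sham and 903 ± 64.5 (SD, n = 10) in 1xCHI.

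**Figure D3:**
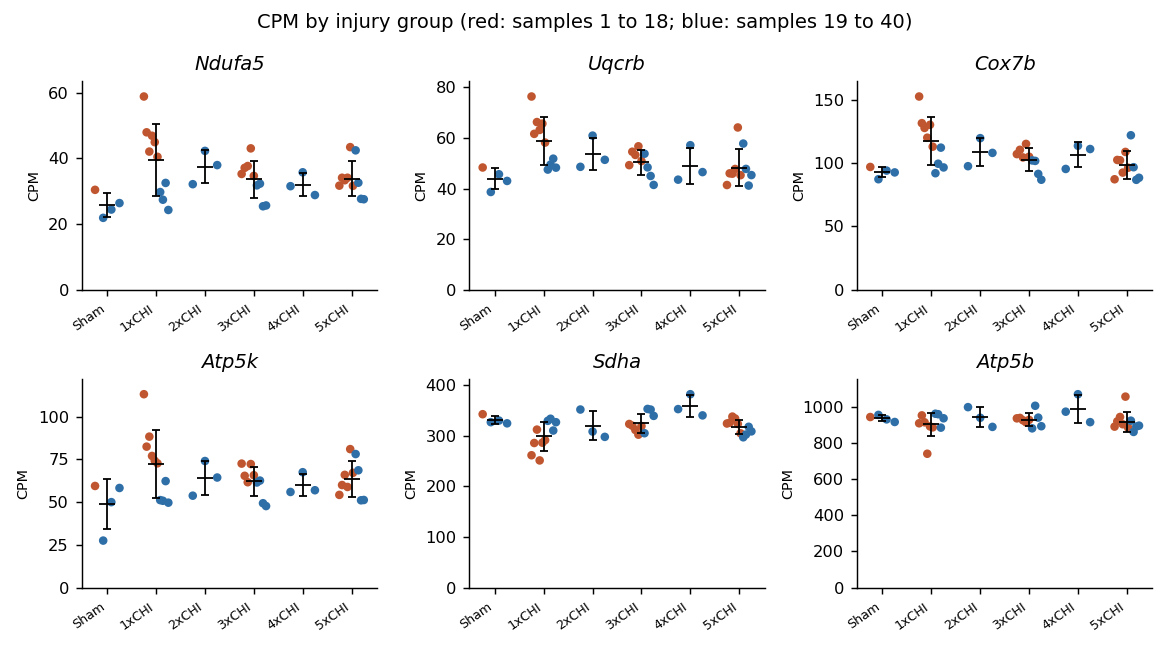
CPM (y axis, from 0) of single subunits in each sample by injury group (x axis), with samples 1 to 18 in red and samples 19 to 40 in blue. For Ndufa5 the 1xCHI samples reach 58.8 CPM against at most 30.4 CPM in Sham, with the red points above the blue ones.

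Further injuries were compared with Sham in the same way. Over all samples the members' median log2 fold change against Sham was 0.22 in 2xCHI, 0.14 in 3xCHI, 0.15 in 4xCHI and 0.15 in 5xCHI. No member had an adjusted p under 0.05 by edgeR or DESeq2 in any of these 4 comparisons (0.0% of features called by edgeR). At an unadjusted p under 0.05, 10 members were higher in 2xCHI, 3 in 3xCHI, 3 in 4xCHI and 9 in 5xCHI and none was lower, where 2.33%, 2.26%, 0.663% and 7.51% of all features were higher and 2.12%, 1.6%, 1.04% and 4.07% lower. These counts rested on single libraries: with 1 left out they ran from 0 to 22 in 2xCHI, 0 to 12 in 3xCHI, 0 to 4 in 4xCHI and 0 to 12 in 5xCHI. Over the same fits 1.11% to 3.56%, 1.45% to 3.35%, 0.631% to 1.23% and 3.98% to 9.49% of all features were higher. The count in 2xCHI was 22 without sample 19, 0 without sample 21, and 4 without sample 29 or Sham sample 20. Without Sham sample 20 it was 0 in 3xCHI, 1 in 4xCHI and 0 in 5xCHI. In 3xCHI it was also 1 without sample 4, 7 and 6 without Sham samples 6 and 39, 9 without sample 37 and 12 without sample 38, in 4xCHI 0 without sample 25, and in 5xCHI 4 without sample 11 and 5 without sample 31. The median fell to 0.12 in 2xCHI without sample 21, to 0.075 in 4xCHI without sample 25 and to 0.092 in 5xCHI without sample 11. The counts also moved with the fit. With a covariate for the sample range they were 45 in 2xCHI, 1 in 3xCHI, 17 in 4xCHI and 3 in 5xCHI (6.80%, 1.31%, 2.11% and 3.84% of all features), and with only the compared groups in the fit 35, 20, 16 and 14 (4.12%, 5.12%, 1.53% and 5.45%). All 5 groups share the 4 Sham samples. The pseudogene copy Ndufb4c was among the 3 smallest p-values in each of these 4 comparisons, with log2 fold changes of 0.35, 0.28, 0.32 and 0.29, and Sham sample 20 had 26.9 CPM of it where the other 3 had 35.6 to 38.3.

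After 2xCHI, Ndufa5 had 32.2, 42.3 and 38.0 CPM, all above the 4 Sham samples, with a log2 fold change of 0.54 ± 0.21 (SE) and an adjusted edgeR p of 0.943. In 20 of 81 members every 2xCHI sample lay above every Sham sample, against 4.54% of all features. All 2xCHI samples are numbered 19 to 40. Within that range the members' median in 2xCHI was 0.24, with 27 higher at an unadjusted p under 0.05 (5.01% of all features), and with the length and GC trend removed it was 0.12 by the first length and 0.05 by the second. Within the same range the median was 0.05 in 3xCHI, 0.17 in 4xCHI and 0.11 in 5xCHI, against 0.05 in 1xCHI, so that the order of the groups was not that over all samples.

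**Figure D4:**
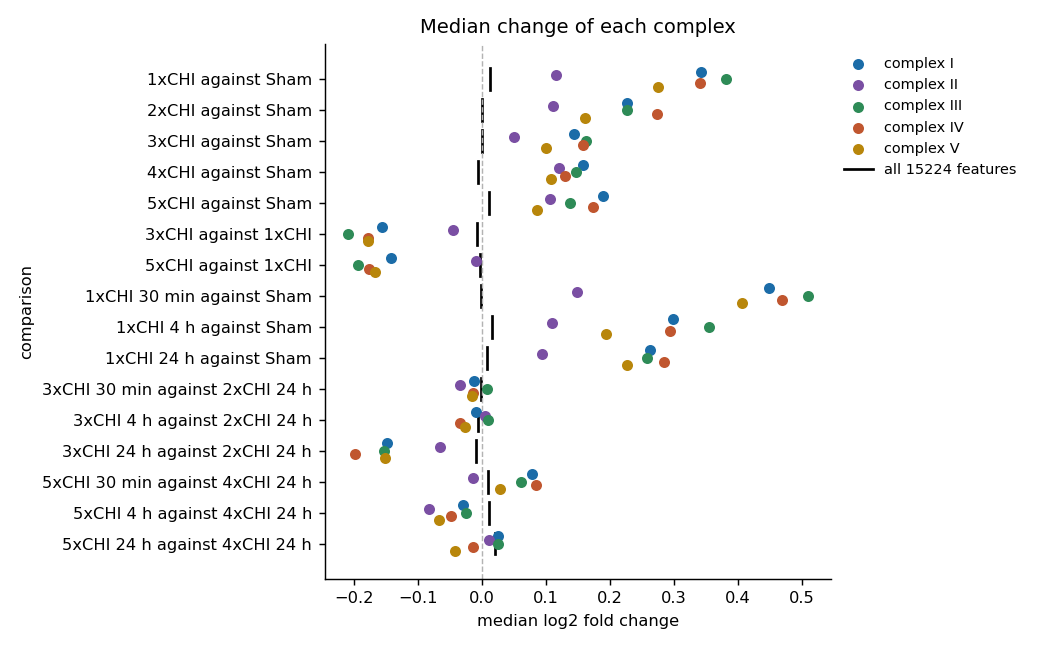
Median log2 fold change of the subunits of each complex (x axis) for each comparison (y axis). Complexes I, III and IV have medians of 0.34, 0.38 and 0.34 in 1xCHI against Sham and complex II has 0.12, and the medians of 5xCHI against 1xCHI are negative for complexes I, III, IV and V.

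To compare repeated with single injury without the Sham samples, 3xCHI and 5xCHI were set against 1xCHI. In 5xCHI, 75 of 81 members had a lower fitted level than in 1xCHI, with a median log2 fold change of -0.15, and 16 were lower and none higher at an unadjusted p under 0.05 (8.63% of all features lower and 8.55% higher). No member had an adjusted p under 0.05 by edgeR, where 2.27% of all features did, and DESeq2 called 2, Cox7b and Uqcrb, and 3.89% of all features. The count of 16 ran from 7 without sample 13 to 47 without sample 11 as 1 library was left out (6.14% and 9.78% of all features lower), and 12 of 20 libraries moved it by over 1.5 times (samples 10, 13, 14, 17, 33 and 34 to 10 or fewer, and samples 11, 26, 27, 28, 31 and 36 to 29 or more). The median was -0.10 without sample 13. Cox7b had 86.8, 96.5 and 122 CPM as the lowest, median and highest of 10 5xCHI samples, which overlapped the 1xCHI samples above, and a log2 fold change of -0.26 with an adjusted edgeR p of 0.0517. Uqcrb had 41.2, 46.0 and 64.2 CPM, a log2 fold change of -0.29 and an adjusted edgeR p of 0.0594. In 3xCHI the median against 1xCHI was -0.17, with 29 members lower and 1 higher at an unadjusted p under 0.05 (7.76% of all features lower and 3.9% higher) and none with an adjusted p under 0.05 by either tool. The count of 29 ran from 5 without sample 13 to 44 without sample 36 (4.32% and 11.1% of all features lower), and 8 of 19 libraries moved it by over 1.5 times (samples 13, 14, 15, 17, 22, 37 and 38 to 17 or fewer, and sample 36 to 44). The median was -0.11 without sample 13.

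The comparison with 1xCHI differed between the sample ranges. Within samples 1 to 18, the 3xCHI samples are numbered 1 to 5, the 5xCHI samples 7 to 12 and the 1xCHI samples 13 to 18. A difference between these groups within that range cannot be told apart from one that goes with sample number. In samples 1 to 18 (6 mice in 5xCHI and 6 in 1xCHI) 46 of 81 members had an adjusted edgeR p under 0.05 in 5xCHI against 1xCHI, 44 of them lower and 2 higher, where 17.7% of all features were called. By complex, 22 of 36 subunits of complex I, 1 of 4 of complex II, 5 of 9 of complex III, 6 of 15 of complex IV and 12 of 17 of complex V were called. Ndufa1, chosen here for its p, fell by 0.53 ± 0.08 (SE) on the log2 scale with an adjusted p of 0.00149, Ndufb2 fell by 0.39 and Cox7b fell by 0.38. The members that rose were Sdha, by 0.22 ± 0.05 with an adjusted p of 0.00911, and Ndufs1, by 0.14. With the length and GC trend removed, 43 members were called by the first length and 19 by the second (17.2% and 15.6% of all features), with medians of -0.18 and -0.10 in place of -0.25. For 3xCHI (5 mice) against 1xCHI in the same range 11 members were called, all lower, where 4.74% of all features were, and 12 and 2 with the trend removed (4.84% and 3.86% of all features).

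In samples 19 to 40 (4 mice a group) the median of 5xCHI against 1xCHI turned. It was 0.07, with 1 member higher and none lower at an unadjusted p under 0.05 (2.17% of all features higher and 1.52% lower). In 3xCHI against 1xCHI the median was -0.0048, with none in either direction (3.76% and 2.97%). No member had an adjusted p under 0.05 in either by edgeR (0.0% of all features in 5xCHI and 0.00657% in 3xCHI). The level of the 1xCHI samples numbered 1 to 18 was 0.30 ± 0.14 (SD, n = 6), against 0.03 ± 0.16 (SD, n = 6) in 5xCHI of the same range and -0.14 ± 0.10 (SD, n = 4) in 1xCHI numbered 19 to 40.

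**Figure D5:**
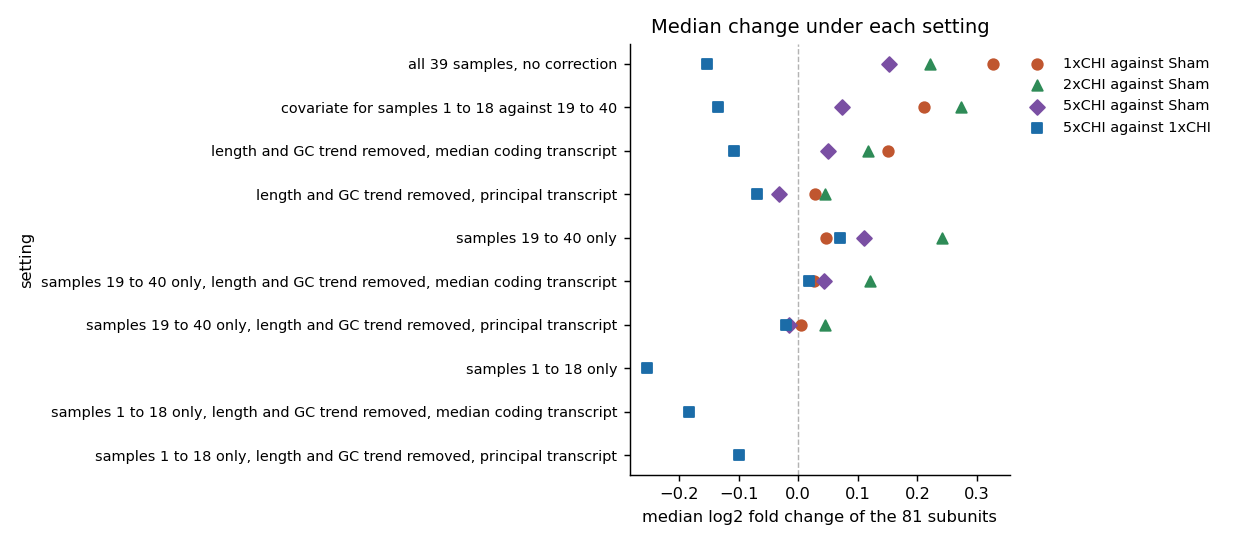
Median log2 fold change of the 81 subunits (x axis) under each way of correcting or restricting the samples (y axis), for the main comparisons. The median of 1xCHI against Sham is 0.33 over all 39 samples, 0.05 in samples 19 to 40, and 0.15 or 0.03 with the length and GC trend removed by the first or the second length.

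Time after the first injury was examined next. Against Sham, the members' median log2 fold change was 0.43 at 30 min, 0.27 at 4 h and 0.25 at 24 h. With the trend removed by the principal transcript the medians were 0.052, -0.0068 and 0.044, with 14, 4 and 5 members higher at an unadjusted p under 0.05 (10.1%, 5.81% and 2.12% of all features). By the median coding transcript 42, 18 and 21 members were higher in the same order (11.2%, 6.88% and 2.88% of all features). With no trend removed, at an unadjusted p under 0.05, 60 members were higher at 30 min, 21 at 4 h and 22 at 24 h, where 13.0%, 6.96% and 3.55% of all features were higher. In the other direction 1 member was lower at 30 min and none later, where 6.71%, 3.57% and 2.47% of all features were lower. None had an adjusted p under 0.05 by edgeR or DESeq2. Ndufa5 had 58.8 and 47.9 CPM in samples 13 and 14 at 30 min and 27.4 CPM in sample 27, the only one of this group numbered above 18. Without sample 27 the count of members with an adjusted p under 0.05 at 30 min was 61, of which 59 were higher, where 23.7% of all features were called, and the median was 0.61, and without sample 13 the median was 0.27 and the unadjusted count 15 (2.23% of all features). At 4 h, 4 members were called without sample 36, the only one of its group numbered above 18, and 3.8% of all features. The unadjusted count at 4 h was 2 without sample 15, 4 without sample 16, 8 without Sham sample 20 and 50 without sample 36 (3.83%, 3.17%, 5.23% and 14.4% of all features), with medians from 0.16 to 0.39. At 24 h it was 1 without sample 17, 7 without sample 18, 2 without Sham sample 20 and 41 without sample 26 (1.79%, 1.61%, 2.71% and 5.89%), with medians from 0.15 to 0.32.

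No difference between the 3 times was detectable in these samples. In a joint test of 30 min, 4 h and 24 h within 1xCHI, 3xCHI and 5xCHI, no member had an adjusted p under 0.05 by edgeR or DESeq2 (0.0328% of all features by edgeR). None had an unadjusted p under 0.05 by edgeR (4.25% of all features), the lowest being 0.0569 for Atp5s. After the third injury the members' medians against 2xCHI at 24 h were -0.01 at 30 min, -0.02 at 4 h and -0.15 at 24 h, with none past an unadjusted p of 0.05 (1.88%, 2.0% and 4.57% of all features). With a covariate for the sample range 1 member was lower at 30 min and 3 at 4 h (1.10% and 2.17% of all features). At 4 h the median with that covariate, given below, was lower. At 24 h the count lower was 4 without sample 2, 3 without sample 19, 2 without sample 23 and 1 without sample 29 (3.53%, 3.24%, 2.34% and 1.13% of all features), and 15 with a covariate for the sample range (4.91%), and the median was -0.055 without sample 21 and -0.083 without sample 38. After the fifth injury the medians against 4xCHI at 24 h were 0.06, -0.05 and 0.01, with 2, 5 and 3 members lower (2.84%, 1.81% and 2.18%). At 4 h the count of 5 was 2 without sample 32, 3 without sample 10 and 3 without sample 25 (2.04%, 1.2% and 1.49% of all features), and 20 with the trend removed by the principal transcript (2.82%). By the median coding transcript that count was 11 (2.62%). Of these 6 medians, 5 changed sign when 1 library was left out: at 30 min after the third injury without sample 21 or 22, at 4 h without sample 21, at 30 min after the fifth without sample 31, at 4 h without sample 25, and at 24 h without sample 11, 24 or 40. None of these 6 comparisons gave a member with an adjusted p under 0.05 by edgeR or DESeq2.

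Genes that work with the subunits were compared in the same fit, in which 10.9% of all features were higher and 6.33% lower after 1xCHI at an unadjusted p under 0.05. All 13 mitochondrially encoded subunits were higher in 1xCHI than in Sham at an unadjusted p under 0.05, with a median log2 fold change of 0.43 and none with an adjusted p under 0.05 by edgeR. mt-Nd2, a membrane subunit of complex I, had 3601 ± 103 CPM (SD, n = 4) in Sham and 4929 ± 809 (SD, n = 10) in 1xCHI. Their median was 0.21 in samples 19 to 40, with 5 of 13 higher at an unadjusted p under 0.05 (1.95% of all features in that fit). It was 0.29 or 0.17 with the length and GC trend removed by the first or the second length. In 5xCHI against 1xCHI they had a median of -0.29 and 6 of 13 fell with an adjusted p under 0.05 (2.27% of all features called), where their median in samples 19 to 40 was -0.02.

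Of 45 assembly factors tested of 46 listed, 15 were higher and 1 lower after 1xCHI at an unadjusted p under 0.05, with a median of 0.11. Uqcc2, needed to build complex III, had 0.49 and Cox16, needed for complex IV, 0.43. The assembly factors summed to 1051 to 1086 CPM in Sham, 1152 to 1232 in 1xCHI samples 1 to 18 and 1058 to 1136 in 1xCHI samples 19 to 40. Of 5 respiratory genes that the symbol rule leaves out, 2 were higher, the ATP synthase inhibitor Atpif1 with 0.44 and the large complex IV subunit Cox4i1 with 0.34. The genes of this list summed to 570 to 616 CPM in Sham, 729 to 988 in 1xCHI samples 1 to 18 and 534 to 677 in 1xCHI samples 19 to 40. Among the features set aside, Ndufb1-ps had 0.54, and Usmg5, a membrane subunit of the ATP synthase under an older symbol, chosen after its value was seen, had 0.45. Of 12 regulators, none was higher and 2 were lower, Ppargc1a, a coactivator of mitochondrial biogenesis, with -0.36 and an unadjusted p of 0.00909, and Yy1 with -0.12. The regulators summed to 348 CPM in Sham sample 6 and to 394 to 397 in the Sham samples numbered 19 to 40. In 1xCHI they summed to 344 to 362 in samples 1 to 18 and 346 to 394 in samples 19 to 40. No gene of these lists had an adjusted p under 0.05 in 1xCHI against Sham.

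Ribosomal protein genes, many of them also short, were compared in the same way. Of 97 cytosolic ribosomal proteins 72 were higher and 1 lower after 1xCHI at an unadjusted p under 0.05, with a median log2 fold change of 0.37, and of 78 mitochondrial ribosomal proteins 43 were higher with a median of 0.22. In samples 19 to 40 these medians were 0.01 and 0.05. As a level by sample, the cytosolic ribosomal proteins ran from -0.29 to -0.09 in Sham, from 0.17 to 0.52 in 1xCHI samples 1 to 18 and from -0.37 to 0.00 in 1xCHI samples 19 to 40. Other features under 1000 bases ran from -0.23 to -0.09, from 0.15 to 0.46 and from -0.25 to -0.01.

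Cell type markers moved with the sample range as well. All markers of neurons, astrocytes, microglia, oligodendrocytes, endothelium, meninges and red blood cells were tested, and none was at 0, with neuronal markers the highest in sum. The summed level of 10 neuronal markers was 11609 to 13585 CPM in Sham, 9817 to 10937 in 1xCHI samples 1 to 18 and 12894 to 13186 in 1xCHI samples 19 to 40, and 2 of 10, Gad1 and Map2, were lower in 1xCHI at an unadjusted p under 0.05 (6.33% of all features). The 10 astrocyte markers summed to 4100 to 5222 CPM, 3168 to 4487 and 4390 to 5254 in the same groups. In 5xCHI samples 1 to 18, 10 microglial markers summed to 398 to 1017 CPM, above the 278 to 375 of 1xCHI in that range, while in samples 19 to 40 they overlapped, with 340 to 381 and 327 to 397 CPM, and 5 of 10 rose in 5xCHI against 1xCHI over all samples with an adjusted p under 0.05 (2.27% of all features called). The astrocyte markers separated in samples 1 to 18 too, with 4567 to 7567 CPM in 5xCHI against 3168 to 4487 in 1xCHI, and overlapped in samples 19 to 40, with 3783 to 4733 and 4390 to 5254 CPM. In samples 1 to 18 the summed neuronal markers overlapped, with 7817, 12207 and 12988 CPM as the lowest, median and highest in 5xCHI and 9817, 10214 and 10937 in 1xCHI. Meningeal markers ran from 138 to 222 CPM in Sham and from 125 to 650 in 1xCHI samples 1 to 18 and 104 to 126 in 1xCHI samples 19 to 40. Red blood cell markers ran from 172 to 276 CPM, 119 to 514 and 86.2 to 275 in the same groups. Oligodendrocyte markers ran from 4973 to 7117 CPM in Sham from 5076 to 8048 in 1xCHI samples 1 to 18 and from 5237 to 6428 in 1xCHI samples 19 to 40. Endothelial markers ran from 180 to 333 CPM, 141 to 228 and 220 to 255. The part of these cells in the subunits' values was not tested.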

How the data were processed

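Bulk RNA sequencing was done on 40 samples. The authors deposited 1 table of estimated counts per gene, aligned to mm10 per the submitters' processing notes, with column names that end as the gene-level output of the quantifier Salmon does. The aligner is not given in the sources used here. Of the values, 4.47% were not whole, and all were rounded. A feature was kept where at least 35 of 39 samples had 10 counts or more, the rule of the study applied here to 39 samples, and the number of features it leaves here is not the study's. Fits used edgeR 4.0.16 (TMM, legacy quasi-likelihood) in R 4.3.3 with adjustment over 15224 features, DESeq2 1.42.0 as an alternative, and no covariates. A first fit had 6 injury groups and a second 12 injury and time groups, giving 17 comparisons. SE is the log2 fold change divided by the square root of F. Fits were tested on simulated data.

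Transcript lengths were tried in 2 definitions: the median over coding transcripts came first, and the principal transcript was added after its result was seen, because the first gave implausible lengths (Uqcrc1 533 bases against 1653, Ndufb2 2413 against 455). Principal lengths stay doubtful for Atp5g1 (4715 bases). The members, gene lists and sample ranges were chosen with earlier results of these data known. Named were, per complex, the 3 highest members, the 3 with the smallest p and the lowest change in 1xCHI against Sham, the 2 with the smallest p in 5xCHI against 1xCHI, and paralogs, 41 in all, with exceptions stated.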

Additional observations from a re-analysis of the deposited data

Results flagged for a closer look

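In 42 groups of 4 to 10 samples, the level of all members and of each complex was searched for a sample standing apart by Dixon's criterion, which chance alone meets in about 1 group in 20, or 2.1 of 42. There were 2, both for the same sample: the complex II level of 5xCHI 24 h sample 11 was 0.428, with a gap to its neighbor of 0.575 of the range among 10 5xCHI samples and of 0.846 among 4 5xCHI 24 h samples. Sample 11 was also the highest 5xCHI 24 h sample for complexes I, III, IV and V, with 0.36, 0.37, 0.33 and 0.30. The same held for other features under 1000 bases, with 0.36, and for cytosolic ribosomal proteins, with 0.57. Without sample 11, 2 members, Ndufv2 and Uqcrb, had an adjusted edgeR p under 0.05 in 5xCHI against 1xCHI, where 1.28% of all features did.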

How the results depend on the processing

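No paired analysis was possible because each replicate number occurs in 1 sample only. Beside leaving out each of 39 replicates in turn, 16 other settings were run, 9 of them listed at the outset with earlier results of these data known and 7 added after values had been seen. The median of 1xCHI against Sham was 0.028 with the length and GC trend removed by the principal transcript, 0.047 in samples 19 to 40, and 0.026 (median coding transcript) or 0.0050 (principal transcript) with both. At 30 min it was 0.19 by the median coding and 0.052 by the principal transcript, at 4 h -0.0068 and at 24 h 0.044 by the latter. The median of 3xCHI 4 h against 2xCHI 24 h was -0.25 with a covariate for the sample range, and that of 5xCHI against 1xCHI 0.069 in samples 19 to 40. Members with an adjusted p under 0.05 in 5xCHI against 1xCHI, none in the fit reported, numbered 1 with all 40 samples (2.56% of all features called), 2 with a covariate for the sample range (3.53%), 2 with the sample number as a covariate (3.06%), 2 and 2 with the trend removed by the median coding and the principal transcript (2.44% and 2.35%), 2 with DESeq2 (3.89%), and in samples 1 to 18 46, then 43 and 19 with the trend removed. For 3xCHI against 1xCHI they numbered 11, 12 and 2 in samples 1 to 18. Leaving out 1 replicate gave 0 to 6 such members in 5xCHI against 1xCHI, 6 of them without sample 31 (4.71% of all features), 0 to 61 at 1xCHI 30 min and 0 to 4 at 1xCHI 4 h.

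Some members changed sign. Within samples 19 to 40, 25 of 81 did so in 1xCHI against Sham, 10 of them with an unadjusted p under 0.05 over all samples, and 1, Cox6b2, had such a p within the range. Among them Ndufs1 had 0.051, Cyc1 -0.050, Uqcrc1 -0.025 and Atp5a1 0.029. By the principal transcript, the log2 fold change of 1xCHI against Sham was -0.0018 for Atp5g3, -0.019 for Atp5l, -0.039 for Cox6a1, -0.029 for Cox6b1, -0.0087 for Cox8a, -0.078 for Ndufb2 and -0.0103 for Sdhb. In samples 19 to 40 with the same correction it was -0.036 for Atp5g3, -0.088 for Atp5l, -0.0018 for Cox6a1, -0.016 for Cox6b1, -0.046 for Cox6c, -0.043 for Cox7a2, -0.044 for Ndufa4 and -0.038 for Ndufb2, and by the median coding transcript -0.0049 for Atp5f1, -0.035 for Atp5l and -0.0049 for Ndufa4. The log2 fold change of 5xCHI against 1xCHI in samples 19 to 40 was 0.038 for Atp5g1, 0.027 for Atp5l, 0.032 for Atp5mpl, 0.058 for Cox5b, 0.13 for Cox6c, 0.098 for Ndufa4 and 0.071 for Ndufb2. With the trend removed it was 0.047 (median coding) and 0.091 (principal) for Atp5g1, 0.098 and 0.037 for Cox6c, 0.0796 and 0.033 for Ndufa4, and 0.088 for Ndufb2 by the median coding transcript. The causes of these changes were not tested. Group sizes of 2 to 4 mice per time limit what could be detected.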
